A study of Mus musculus with 4 samples.

Results

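The BCL2 family decides at the outer membrane of mitochondria whether a cell starts apoptosis. It was followed here through 10 genes in cultured mouse spermatogonial stem cells, germ cells that renew themselves and found sperm production. The members were the guardians Bcl2, Bcl2l1 (which encodes BCL-XL) and Mcl1, the effectors Bax and Bak1, and the BH3-only genes Bcl2l11 (BIM), Bbc3 (PUMA), Pmaip1 (NOXA), Bmf and Bid. They were taken by gene name, with every non-control probe of each, which gave 10 of 27729 genes and 20 of 41174 probes on the array. The cells labelled -F+S had FGF2 withdrawn and the FGF receptor inhibitor SU5402 added, with 12 h given in their label, and the control cells stayed in normal medium with 5 ng/ml FGF2. The serum-free medium described for the cultures holds 40 ng/ml GDNF, and all cells carried the strain label C57/BL6 x DBA/2 F1 and the age label day 5. Each of 4 two-colour arrays paired 1 -F+S culture in the green channel with 1 control culture in the red channel, so n = 4 per group, and no array had the dyes exchanged. A gene-specific dye effect and the treatment therefore cannot be told apart. The labels name biological replicates without saying how the cultures were separated, so p-values measure the spread between these cultures.

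Guardians hold effectors in check by binding them and the BH3-only proteins. BH3-only proteins are the stress sensors of the family: they occupy the groove of the guardians, and some also activate effectors directly. Freed effectors assemble into pores that let cytochrome c out, which activates the apoptosome and the caspases. In the testis the balance of BAX and the guardians is known to set the early wave of germ cell loss, and growth factor signalling through ERK and AKT is known to restrain BIM and PUMA.

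The arrays read each gene through oligos of 60 bases, and oligos of the same gene differed in ratio for several members. Whether this came from their place in the mRNA was not tested. The 3 coding oligos below are shown because their ratios differed from, or framed, those of a second probe of the same gene. They are given 5′ to 3′ as the files hold them, with mm9 positions. Capitals in the Bak1 oligo mark codons of the BH1 motif that lines the groove, and capitals in the Bcl2l11 oligo mark codons of the BH3 motif that binds guardians. The Bcl2 oligo lies in the BH1 region and has no capitals.
Bcl2, chr1:108608970-108609029, minus strand: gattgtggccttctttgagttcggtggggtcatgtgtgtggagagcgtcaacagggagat
Bak1, chr17:27158232-27158291, minus strand: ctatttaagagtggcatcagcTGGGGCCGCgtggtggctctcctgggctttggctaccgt
Bcl2l11, chr2:127972893-127983988, plus strand: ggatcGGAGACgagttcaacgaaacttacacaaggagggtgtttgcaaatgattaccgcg
The letters GGNGAC occur in 3.77% of all 41174 probes and TGGGGNCGN in 0.0777%. The Bcl2l11 oligo spans 11096 bases of the chromosome for its 60 bases, so it crosses at least one intron.

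Guardians, effectors and BH3-only genes were all among the members higher in -F+S cells, and the calls of Bak1, Bcl2l11, Bcl2l1 and Bmf rested on 1 of their probes. At their brightest probes, 6 of the 10 members were called higher in -F+S cells (Bcl2, Mcl1, Bax, Bak1, Bcl2l11 and Bbc3), 3 were called lower (Bcl2l1, Bmf and Bid) and Pmaip1 was not called, by limma with Benjamini-Hochberg adjustment over 18449 genes at an adjusted p under 0.05. Bcl2 and Bak1 were at least 2-fold higher, as were 11.7% of all genes. The same test called 68.4% of all 18449 genes, 37.5% higher and 30.9% lower, against 9 of the 10 members called. The count over these 10 chosen genes is given as a description and is not a result about the family. On the deposited processed signals without centring, the higher calls were 41.6% of all called genes, against 54.8% here. The 2 groups' channel levels did not overlap for 9 of the 10 members, against 61.2% of all genes, and the ratio had the same sign on all 4 arrays for 9 members, against 73.5% of all genes.

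**Figure D1:**
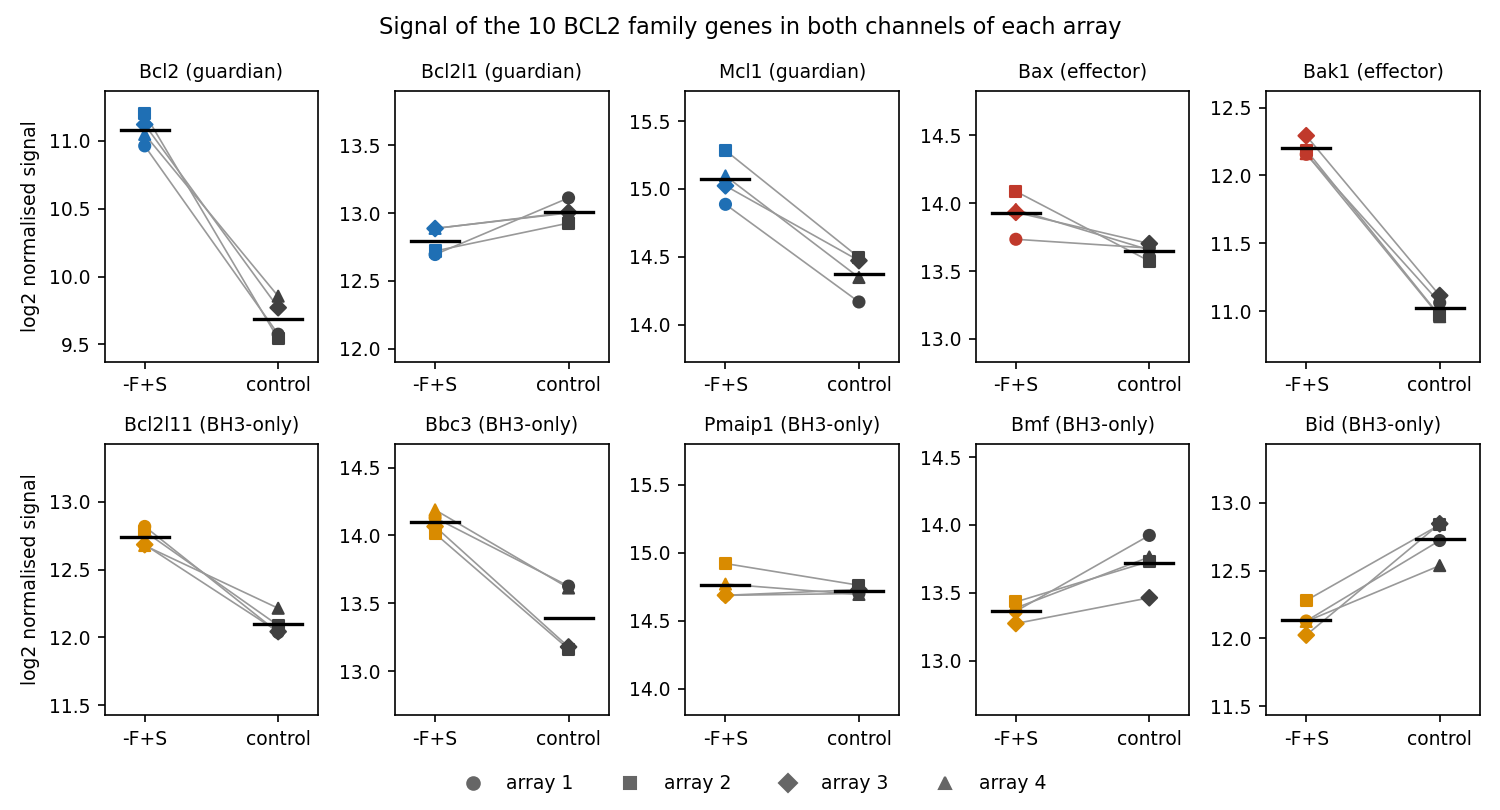
Log2 normalised signal (y axis) of the brightest kept probe of each member in -F+S cells and control cells (x axis), with 1 marker shape per array, lines joining the channels of an array and bars at the mean of 4. Each y axis spans the same log2 range around its own gene. The groups are apart for every member except Pmaip1.

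The level of a marker in a culture can fall because there are fewer cells of a type or because each cell holds less of the RNA, and these cannot be told apart here. The markers of spermatogonia were present: of 13 genes listed, 12 were tested, 7 of them lower in -F+S cells and none higher, and their summed signal lay between 197312 and 204128 in -F+S cells, against 252616 to 286620 in control cells. Sertoli cell markers were higher for 9 of 10 genes, with summed signals of 442793 to 471719 in -F+S cells and 99070 to 105116 in control cells. Fibroblast and peritubular markers were higher for 9 of 10 genes, with sums of 1462075 to 1564802 in -F+S cells and 526884 to 599071 in control cells. Leukocyte markers were lower for all 9 genes, with sums of 51445 to 64221 in -F+S cells and 124982 to 150111 in control cells. Leydig cell markers were higher for 3 of 4 genes tested and lower for 1 (25549 to 28904 in -F+S cells, 6791 to 8350 in control cells, with Lhcgr not above background and Insl3 not analysed here). Endothelial markers were higher for 2 of 6 genes and lower for 3 (4137 to 4627 in -F+S cells, 4637 to 5218 in control cells). No marker list was tied to the BCL2 family values, and their part in those values was not tested.

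Bcl2, the founding guardian, was 2.63-fold higher in -F+S cells. Its brightest probe, the coding oligo shown above at base 1838 of transcript variant 2, had log2 signals of 10.96, 11.20, 11.12 and 11.05 in -F+S cells, against 9.58, 9.54, 9.77 and 9.86 in control cells. All -F+S cultures were above all control cultures, and the log2 ratio was 1.40 (SE 0.086, n = 4, limma adjusted p = 7.01e-07). The probe at base 7109 of transcript variant 1 had log2 signals of 11.33, 11.24, 11.07 and 11.20 in -F+S cells and 8.78, 8.68, 8.61 and 8.79 in control cells. That is a 5.63-fold difference (log2 ratio 2.49, SE 0.071, limma adjusted p over probes = 1.57e-08), larger than that of the first probe on every array. The difference in log2 ratio between the probes was -1.10 (SE 0.082, first minus second, limma adjusted p = 0.000278). The third probe, from a cDNA, read the control channel well above background on 0 of 4 arrays. It passed the filter through its -F+S channel alone, so that it had to differ. In the reported processing its control signal was set no lower than the dimmest control signal well above background. That gave a difference of at least 1.61-fold, as a description of this setting alone. Over 11 settings the log2 ratio of this probe lay between 0.52 and 2.12. The 2 Bcl2 probes read in both channels were thus higher in -F+S cells, by differing amounts.

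Mcl1, a short-lived guardian, was 1.63-fold higher in -F+S cells. Its brightest probe, at base 3240, had log2 signals of 14.89, 15.28, 15.02 and 15.10 in -F+S cells, against 14.17, 14.50, 14.47 and 14.35 in control cells. The groups did not overlap (log2 ratio 0.70, SE 0.071, limma adjusted p = 2.15e-05). The second Mcl1 probe, at base 1928, gave a log2 ratio of 0.50, and the difference between the probes of 0.20 did not pass (SE 0.091, limma adjusted p = 0.115).

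Bcl2l1 was the guardian whose probes did not share a direction. Its brightest probe, at base 2084, had log2 signals of 12.69, 12.72, 12.89 and 12.89 in -F+S cells and 13.11, 12.93, 13.01 and 13.00 in control cells. The control cultures were all higher, by a small margin (log2 ratio -0.21, SE 0.076, limma adjusted p = 0.0321), and the call was lost without array 1 (log2 ratio -0.15, adjusted p = 0.162), without array 2 (log2 ratio -0.22, adjusted p = 0.0849) and under median centring (log2 ratio -0.18, adjusted p = 0.328). The probe at base 129 was higher in -F+S cells instead, with log2 signals of 8.91, 9.50, 9.21 and 8.83 in -F+S cells and 8.54, 8.86, 8.55 and 8.84 in control cells. On array 4 the channels were level, and the log2 ratio over arrays was 0.42 (SE 0.11, limma adjusted p over probes = 0.00936). That call was lost without array 2 (0.34, adjusted p = 0.0523) or array 3 (0.34, adjusted p = 0.0505). The probe at base 674 gave 0.21 and was not called (SE 0.11, limma adjusted p over probes = 0.131). The difference between the brightest probe and that at base 129 was -0.63 (SE 0.14, limma adjusted p = 0.0125).

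Bak1, a pore-forming effector, was 2.26-fold higher in -F+S cells at its brightest probe and not at its coding probe. The brightest probe, at base 1732, had log2 signals of 12.16, 12.19, 12.29 and 12.16 in -F+S cells, against 11.06, 10.96, 11.11 and 10.96 in control cells. The 4 log2 ratios lay between 1.09 and 1.22, with a mean of 1.17 (SE 0.067, limma adjusted p = 4.26e-07). The BH1 oligo printed above, at base 598, had log2 signals of 10.02, 10.18, 10.07 and 9.89 in -F+S cells and 10.11, 10.13, 10.46 and 10.16 in control cells. There the groups overlapped (log2 ratio -0.17, SE 0.087, limma adjusted p over probes = 0.108). On the processed signals this oligo was called lower, at -0.40 uncentred (limma adjusted p over probes = 0.00738) and -0.35 centred (0.0381). The difference between the probes, 1.35 (SE 0.096, limma adjusted p = 0.000262), was above 1 on every array.

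Bax, the other effector, was 1.21-fold higher in -F+S cells. Its only probe, at base 174, had log2 signals of 13.73, 14.09, 13.93 and 13.95 in -F+S cells and 13.67, 13.57, 13.70 and 13.66 in control cells. The groups were apart, but array 1 differed by only 0.065 and array 2 by 0.51 (log2 ratio 0.28, SE 0.084, limma adjusted p = 0.0157). The call was lost without array 2 (log2 ratio 0.20, adjusted p = 0.0916), under median centring (0.24, adjusted p = 0.174) and on the processed signals, where the ratio was 0.11 uncentred (adjusted p = 0.298) and 0.16 centred (adjusted p = 0.355).

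Bcl2l11, which encodes the broad-acting BH3-only protein BIM, was 1.56-fold higher in -F+S cells at its brightest probe. That probe, at base 4804, had log2 signals of 12.82, 12.78, 12.68 and 12.68 in -F+S cells, against 12.04, 12.09, 12.04 and 12.21 in control cells. The groups did not overlap (log2 ratio 0.64, SE 0.075, limma adjusted p = 5.52e-05). The BH3 oligo printed above, at base 682, had log2 signals of 10.08, 10.03, 10.01 and 10.15 in -F+S cells and 10.12, 10.16, 9.98 and 10.20 in control cells. These overlapped almost fully (log2 ratio -0.044, SE 0.070, limma adjusted p over probes = 0.599). On the uncentred processed signals this oligo was called lower (-0.25, limma adjusted p over probes = 0.0206). The difference between the probes was 0.69 (SE 0.086, limma adjusted p = 0.00156), and the third probe of the gene did not pass the filter.

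Bbc3, which encodes PUMA, a BH3-only protein known as a target of p53 and FOXO factors, was 1.63-fold higher in -F+S cells. Its probe had log2 signals of 14.13, 14.01, 14.07 and 14.19 in -F+S cells, against 13.63, 13.16, 13.18 and 13.61 in control cells. The control cultures of arrays 2 and 3 sat clearly below those of arrays 1 and 4, and all were below the -F+S cultures (log2 ratio 0.70, SE 0.085, limma adjusted p = 6.96e-05). Pmaip1, which encodes NOXA, a partner of MCL1, was level, with log2 signals of 14.69, 14.92, 14.69 and 14.77 in -F+S cells and 14.70, 14.76, 14.73 and 14.69 in control cells (log2 ratio 0.045, SE 0.070, limma adjusted p = 0.583). Array 2 alone was higher by more than 0.1, and an effect of this size in either direction was not detectable. The sign of Pmaip1 turned under median centring (-0.10), on the processed signals (-0.063 uncentred and -0.016 centred) and without the GC trend (-0.18), with no call in any of these.

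Bid, which links death receptors to the mitochondria after cleavage by caspase 8, was 1.51-fold lower in -F+S cells. Its probe had log2 signals of 12.13, 12.28, 12.02 and 12.13 in -F+S cells, against 12.72, 12.84, 12.84 and 12.54 in control cells. No -F+S culture reached a control culture (log2 ratio -0.60, SE 0.081, limma adjusted p = 0.000148). Bmf, a BH3-only gene whose protein is tethered to the cytoskeleton, was 1.28-fold lower at its brightest probe, with log2 signals of 13.36, 13.43, 13.27 and 13.39 in -F+S cells and 13.92, 13.73, 13.46 and 13.76 in control cells. The groups were apart (log2 ratio -0.36, SE 0.079, limma adjusted p = 0.00301). Its second probe, at base 754, gave -0.14 (SE 0.073, limma adjusted p over probes = 0.119). That probe was called lower on the uncentred processed signals (-0.35, limma adjusted p over probes = 0.00794). The difference between probes did not pass (-0.22, SE 0.10, limma adjusted p = 0.130), and the third Bmf probe did not pass the filter.

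**Figure D2:**
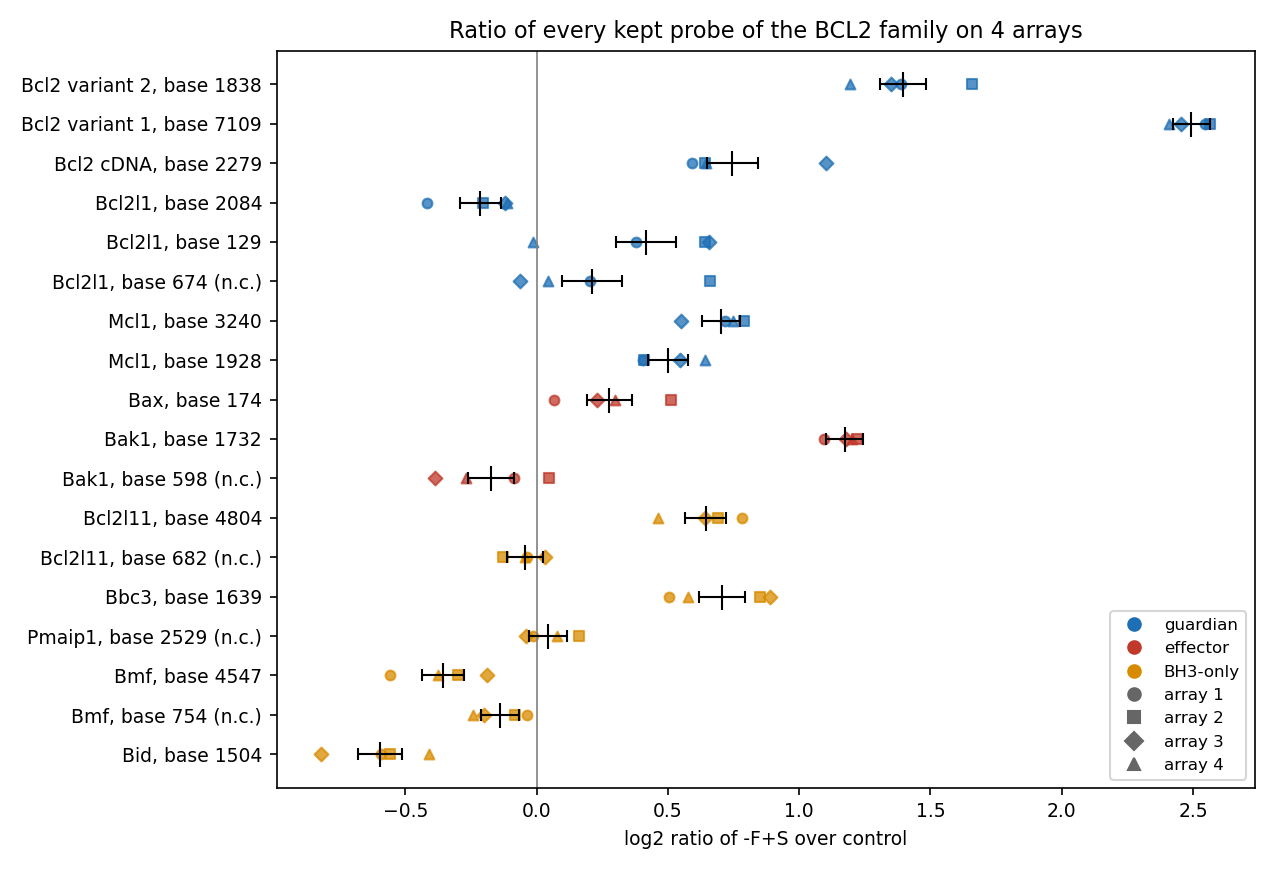
Log2 ratio of -F+S over control (x axis) of the 18 kept member probes (rows, with the first base in the named transcript), with 1 marker shape per array and the limma mean and SE as a black bar. Probes marked n.c. were not called over all probes. The Bcl2 probe of variant 1 lies farthest right, and Bak1, Bcl2l1 and Bcl2l11 have probes on either side of 0.

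Of the 20 member probes, 18 passed the filter. Among those, 10 were called higher, 3 lower and 5 not. One of the 10 is the Bcl2 cDNA probe, kept only through the channel where it is high, so the count is given as a description, against 66.4% of all 27722 probes called, 37.3% higher and 29.1% lower. A test of the difference between the 2 brightest probes was called for Bcl2, Bcl2l1, Bak1 and Bcl2l11, that is 4 of 6 members with several kept probes, against 44.7% of 6606 genes with such a pair. A difference of at least 1 on the log2 scale, as in Bcl2 and Bak1, occurred in 5.68% of those genes, and the median absolute difference was 0.27. The probe nearer the end of the transcript had the higher ratio in Mcl1, Bak1 and Bcl2l11, and the lower one in Bcl2l1 and Bmf, where the differences of Mcl1 and Bmf did not pass. The Bcl2 probes are named by different transcripts, so their bases are not on 1 scale. Which variants each oligo reads was not tested, so their ratios are not values of single variants. Over 11 settings of the processing, the ratio of the later Bak1 probe stayed between 1.01 and 1.27 and that of the BH1 oligo between -0.40 and -0.064. Likewise the Bcl2l11 probes stayed at 0.49 to 0.71 and -0.25 to 0.044. The Bcl2 probes named by variants 1 and 2 stayed at 2.27 to 2.63 and 1.28 to 1.50. Removing the trend of the ratio on GC content is among those settings.

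**Figure D3:**
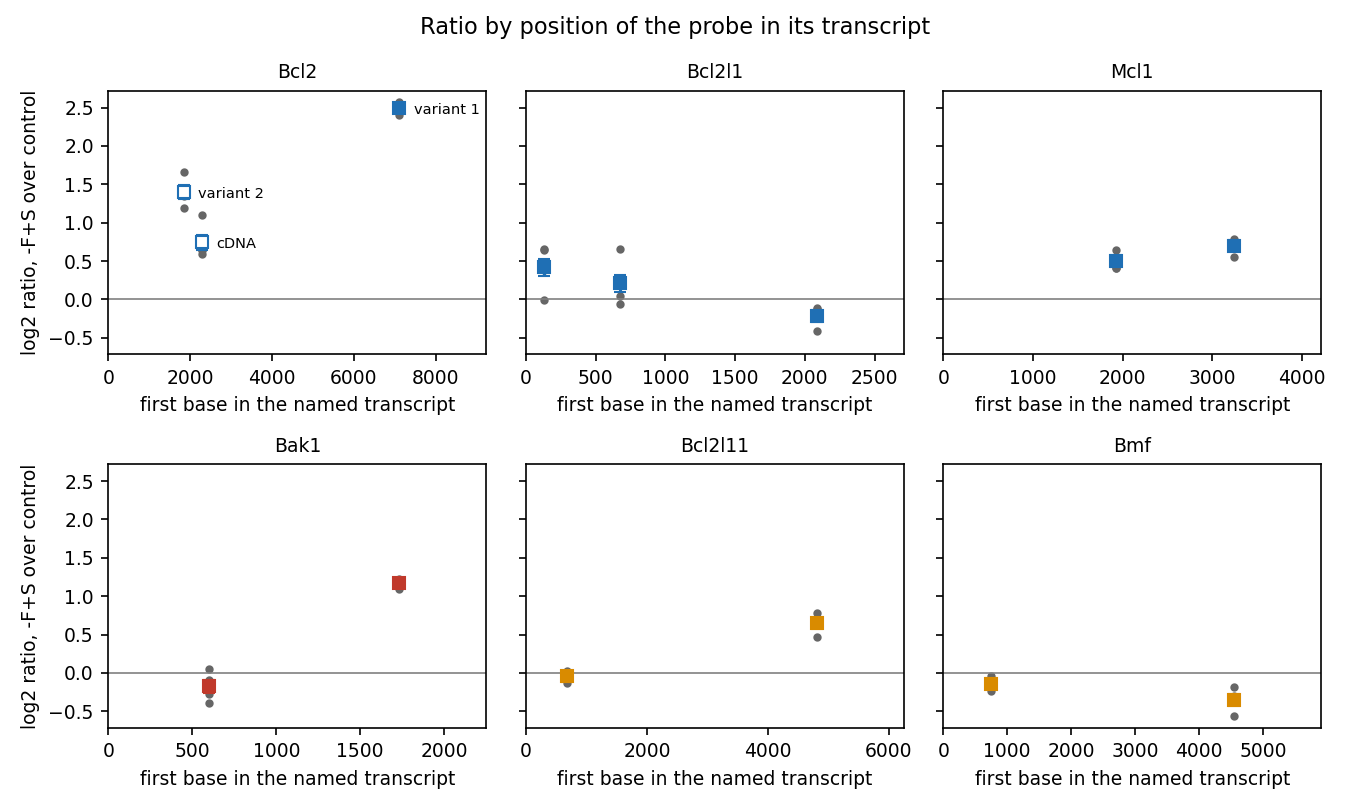
Log2 ratio of -F+S over control (y axis) against the first base of the probe in its named transcript (x axis) for the 6 members with several kept probes. Squares with bars are the limma mean and SE, grey points are the 4 arrays, and hollow squares of Bcl2 mark transcripts other than variant 1. Ratios of Bak1 and Bcl2l11 are near 0 at the early base and clearly above it at the late base.

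Repeat spots gave the spread within an array. Bcl2 variant 1, Bcl2l1 at base 2084 and Bax were printed 10 times per array, with up to 9 usable spots for Bcl2. The SD of the log2 ratio between repeat spots was 0.035 to 0.045 for Bcl2, 0.022 to 0.066 for Bcl2l1 and 0.022 to 0.035 for Bax. The SD between arrays was 0.075, 0.14 and 0.19 for these probes, larger than between repeat spots in each case.

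Bcl2l11 and Bbc3 were both higher in -F+S cells at their brightest probes, while the BH3 oligo of Bcl2l11 was not called (log2 ratio -0.044). Their promoters are shown because FOXO factors, which AKT is known to keep out of the nucleus, are known to act on both genes. A part of FOXO factors in these ratios was not tested. Promoter windows of 250 bases before to 50 after the start came from RefSeq on GRCm38.p6, which held 16 windows for 9 of the 10 members. The FOXO motif GTAAACA (either strand) occurred in 1 window each of Bcl2l11, 227 bases before the start, and of Bbc3, 167 bases before it. That is 2 of the 16 windows of the members, against 3.65% of all 32851 windows. The capitals in these windows mark GTAAACA, or its reverse complement, and in Bcl2l11 also the ETS motif CCGGAAG on the other strand, with no overlap.
Bcl2l11, chr2:128125788-128126087, plus strand: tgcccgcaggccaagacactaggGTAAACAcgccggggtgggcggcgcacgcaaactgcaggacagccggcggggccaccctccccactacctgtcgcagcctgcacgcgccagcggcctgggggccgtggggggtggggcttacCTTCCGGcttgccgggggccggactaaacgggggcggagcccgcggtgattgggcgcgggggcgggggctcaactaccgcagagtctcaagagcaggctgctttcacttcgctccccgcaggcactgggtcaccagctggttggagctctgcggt
Bbc3, chr7:16310011-16310310, plus strand: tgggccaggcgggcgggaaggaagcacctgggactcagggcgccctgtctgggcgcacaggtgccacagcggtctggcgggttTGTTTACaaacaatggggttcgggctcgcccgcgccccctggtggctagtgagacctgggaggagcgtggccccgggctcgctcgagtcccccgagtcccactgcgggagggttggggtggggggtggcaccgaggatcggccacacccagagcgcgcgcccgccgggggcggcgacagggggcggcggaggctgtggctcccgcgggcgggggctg
The ETS letters CCGGAAG also occurred in Mcl1, 63 bases before the start, and in Bcl2l1, 35 bases after it. They were in 3 of the 16 windows, against 8.86% of all windows. The E-box CACGTG occurred in 2 of the 16 windows, of Bax and Bbc3, against 7.15% of all windows. The GC box GGGCGG occurred in 10 of the 16 windows, from 7 members, against 35.7% of all windows. GC content was 49.3% to 78.0% in the 16 windows, with a median of 52.7% over all windows. The letters TGANTCA (AP-1), TGACGTCA (CRE) and TTTGGCGC (E2F) occurred in none of the 16 windows. A match is a description of these windows.

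The pathway around the family was read through 9 lists of 67 other genes, of which 62 were tested. Of these, 30 were called higher in -F+S cells, 17 lower and 15 not, with a median log2 ratio of 0.20. Over all genes 37.5% were called higher and 30.9% lower, with a median of 0.023. On the uncentred processed signals the balance of the lists turned, with 22 genes called higher and 25 lower. Among the guardians outside the members, Bcl2l2 was higher (log2 ratio 1.08, limma adjusted p = 1.80e-06) and Bcl2a1b lower (log2 ratio -0.78, limma adjusted p = 1.23e-05), where the near-identical Bcl2a1 copies cannot be told apart with certainty. Of 5 other multidomain genes, 1 was higher and 4 lower (median -0.44). The exception was Bok, an effector-like gene, at a log2 ratio of 2.23 (limma adjusted p = 2.18e-08). Bcl2l15 was lowest at -1.36, followed by Bcl2l14 at -0.56 and Bcl2l12 at -0.44, whose second probe gave 0.26. Of 5 further BH3-only and BH3-like genes, 4 were higher and 1 lower (median 0.25), led by the mitophagy receptor Bnip3 at 1.45 (limma adjusted p = 1.49e-06), with Bad at 0.34 and Bnip3l at 0.25 and with Becn1, an autophagy gene, at -0.37. The second probe of Bad gave 0.078 (adjusted p = 0.430), and its call was also lost with no replicate block (adjusted p = 0.0799). Becn1 lost its call under median centring (adjusted p = 0.0502). Bnip3l turned to -0.048 under median centring and lost its call without array 2 (0.21, adjusted p = 0.0659). Its call was also lost on the processed signals (0.19 uncentred and 0.23 centred) and without the GC trend (0.14).

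Downstream of the pores, 6 of 12 apoptosome and caspase genes were higher, 2 lower and 4 not called (median 0.10). The executioner caspase gene Casp6 had a log2 ratio of 0.74, the initiator Casp8 0.98, and the mitochondrial nuclease Endog -0.54 (limma adjusted p of at most 0.000140 for all 3). Casp2 at -0.13 and Dffb at -0.19 were not called. Dffb was called lower without array 4 (-0.27, adjusted p = 0.0216), with no background correction (-0.22) and without the GC trend (-0.41). It was also called lower on the processed signals (-0.48 uncentred and -0.43 centred). Casp2 was called lower on the uncentred processed signals (-0.28) and without the GC trend (-0.17). Of 7 genes of IAP proteins and their antagonists, 4 were higher, 1 lower and 2 not called (median 0.29). Birc3 and Birc6, which encode inhibitors of apoptosis, were at 0.82 and 0.65, Htra2 was at 0.49, and Diablo, which encodes an IAP antagonist, fell by 0.78 on the log2 scale, while its second probe was at -0.20 and was not called (adjusted p = 0.0693). Xiap, the best known caspase inhibitor, was not called (-0.24), and its second probe was called higher (0.27, limma adjusted p = 0.0347). Xiap was called lower without array 1 (-0.36, adjusted p = 0.0217) and without the GC trend (-0.29). The same held on the processed signals (-0.49 uncentred and -0.44 centred).

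Upstream, 6 of 7 death receptor and adaptor genes were higher and 1 was not called (median 1.21). Tnfrsf1a, a TNF receptor, had a log2 ratio of 1.40, Fas 1.34, the kinase gene Ripk1 1.25 and the adaptor gene Tradd 1.21 (limma adjusted p of at most 2.17e-06), and Tnfrsf10b was at -0.11 and not called. Tnfrsf10b was called lower at its second probe (-0.41, adjusted p = 0.00124) and on the uncentred processed signals (-0.33, adjusted p = 0.00635). Death receptors are carried by many cell types, and the Sertoli and fibroblast markers above were higher too, whose part in this list was not tested. Of 7 outer membrane partners, 4 were higher and 3 not called (median 0.24): the channel genes Vdac2 and Vdac1 were at 1.45 and 1.20, and the fission genes Dnm1l and Mff at 0.84 and 0.24. The second probe of Dnm1l gave 0.23 and was not called (adjusted p = 0.0658). Vdac3 at 0.081 and Mtch2 at -0.10 were not called. The second probe of Mtch2 was called higher (0.79, limma adjusted p = 0.000419), and Mtch2 was called lower on the uncentred processed signals (-0.24, limma adjusted p = 0.0281). Mff lost its call without array 4 (0.17, adjusted p = 0.0705), under median centring (0.17), on the processed signals (0.089 uncentred and 0.14 centred) and without the GC trend (0.019).

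Of 7 genes for turnover and tethering of family proteins, none was higher, 4 were lower and 3 were not called (median -0.23). Usp9x, a deubiquitinase of MCL1, was at -0.56, Huwe1, a ligase for MCL1, at -0.35, Dynll1, a dynein light chain that binds BIM, at -0.25, and Btrc, a subunit of a ubiquitin ligase, at -0.23. Btrc lost its call without array 1 (-0.24, adjusted p = 0.0885), array 3 (-0.12, adjusted p = 0.20) or array 4 (-0.26, adjusted p = 0.0558). It also lost its call under median centring (-0.15), with no filter on dim probes and with no replicate block (-0.23 in both). Probes disagreed here: the second probes of Usp9x, Huwe1 and Dynll1 gave 0.39, 0.099 and 0.27. Of these only that of Usp9x was called (limma adjusted p = 0.00356). With the mean over kept probes none of these genes was called (-0.087, -0.077 and 0.0099). Dynll1 was at 0.042 on the centred processed signals. Fbxw7 at 0.23 and Trim17 at -0.11 were not called, and Trim17 was called lower on the processed signals (-0.37 uncentred and -0.32 centred). Of 10 transcription factors known to act on BH3-only genes, 4 were higher, 4 lower and 2 not called (median 0.11). The stress factors Jun, Ddit3 and Atf4 were at 1.01, 0.95 and 0.70 (limma adjusted p of at most 1.40e-05), Foxo3 at -0.34 (limma adjusted p = 0.00194), and Myc at 0.18 and Trp73 at 0.045 were not called. Foxo3 lost its call under median centring (-0.30, adjusted p = 0.0853).

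**Figure D4:**
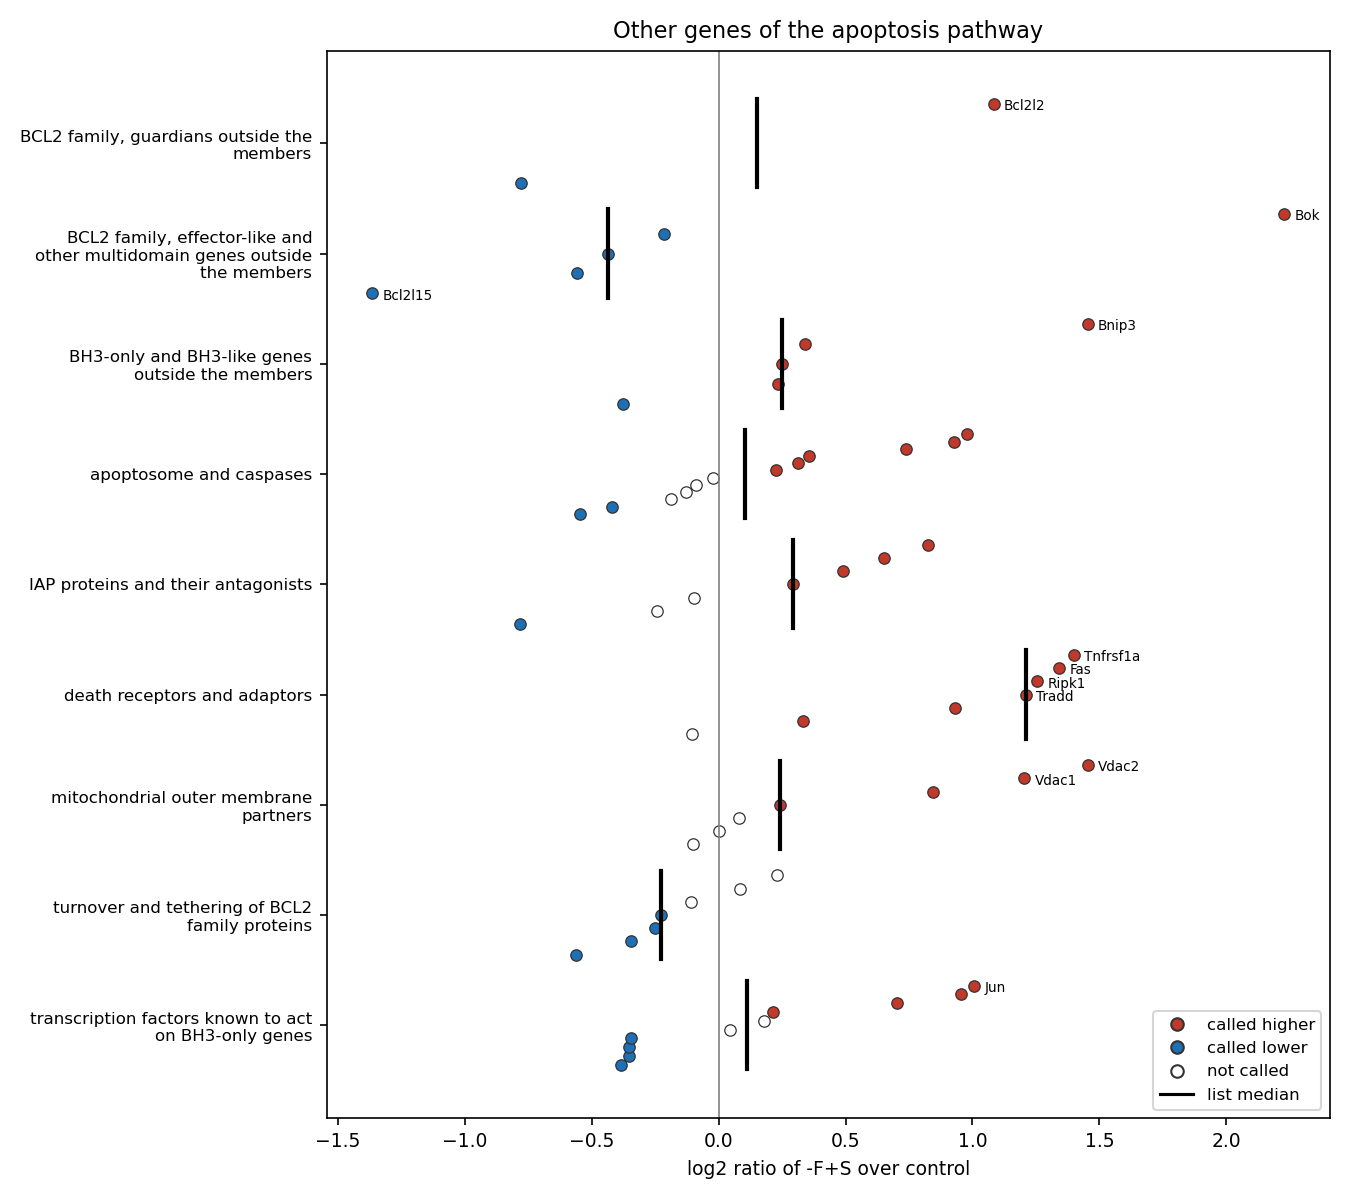
Log2 ratio of -F+S over control (x axis) of 62 tested genes in 9 lists (rows), red where called higher, blue where called lower and white where not called, with a black line at the list median and names for genes at or beyond 1 in size. The death receptor list sits farthest right, with a median of 1.21.

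**Figure D5:**
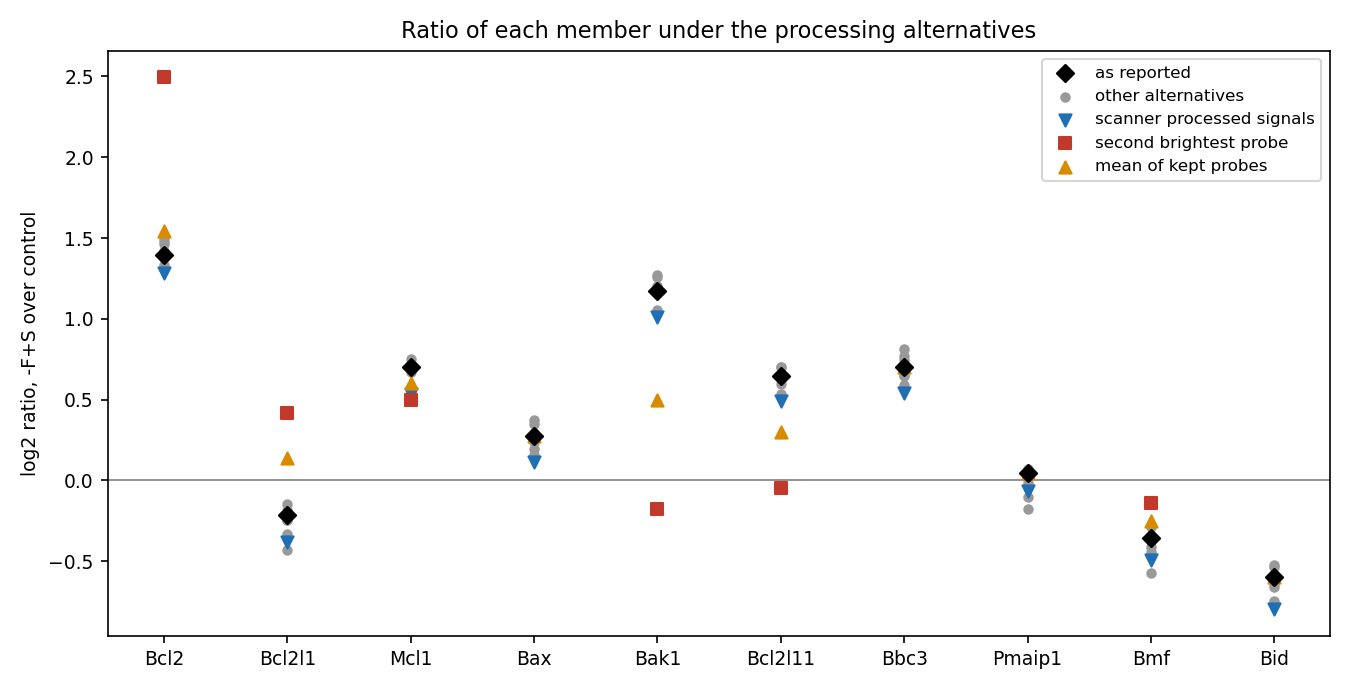
Log2 ratio of -F+S over control (y axis) of each member (x axis) as reported and under the processing alternatives. Black diamonds are the reported values, red squares the second brightest probe, orange triangles the mean over kept probes, blue triangles the processed signals uncentred and grey points the others. The second probe moves Bcl2, Bcl2l1, Bak1 and Bcl2l11 most.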

How the data were processed

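The authors deposited linear intensity values from the scanner. Agilent Feature Extraction 10.5.1.1 made them, per the submitters' processing notes. Green was the -F+S channel and red the control channel, per the labels. The authors deposited log2 values in the series matrix, which equalled log2 of green over red processed signal without centring (within 0.001). The deposited LogRatio is log10 of red over green, per the file headers. All 4 arrays lay on 1 slide in 1 scan.

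Spots (45018, of which 1639 controls) were background-corrected by normexp (offset 50), normalised by loess within array and averaged per probe, with 141 to 171 marked spots per array left out and none saturated. A probe was kept where one channel was well above background on 3 or more of 4 arrays (27722 of 41174), and the brightest stood for its gene (18449 genes). Levels are log2 after loess and Aquantile. limma 3.58.1 in R 4.3.3 tested ratios against 0, two-sided, with Benjamini-Hochberg adjustment over all genes or probes. The ratio is relative to the trend of each array, whose ratios correlated at r 0.907 to 0.948 across genes. The number of arrays limits the precision. Alternatives changed the background correction, normalisation, filter, probe, GC trend, pairing and arrays used. The fit was tested on simulated data. Probe positions are mm9, per the file headers.

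The members and lists were chosen with earlier results of these data known. Named from each list are up to 4 called genes by adjusted p and up to 2 not called, and 1 gene that this rule takes is not reported here. The probe difference fit and the marker counts were chosen after seeing the data. The labels say nothing of feeder cells.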

Additional observations from a re-analysis of the deposited data

Results flagged for a closer look

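The log2 ratios of the Bcl2 probe from a cDNA were 0.594, 0.641, 1.104 and 0.645 on arrays 1 to 4. Array 3 stood apart from the others by 0.899 of the whole range of the 4 values, above Dixon's critical value for 4 samples. The control signal of this probe was well above background on 0 of 4 arrays, and array 3 had its lowest control log2 signal, 6.43. Chance marks about 1 in 20 groups in this way. All 20 member probes were screened, and this was the only probe marked.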

How the results depend on the processing

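With the second brightest probe, 3 members were called higher and 0 lower, of the 6 members that have one, and the counts were 2480 higher and 1780 lower over 6606 genes and 11 higher and 6 lower in the lists, where fewer genes were tested. Log2 ratios turned for Bcl2l1 (0.42), Bak1 (-0.17), Bcl2l11 (-0.044), Bcl2l12 (0.26), Xiap (0.27), Mtch2 (0.79), Huwe1 (0.099), Usp9x (0.39) and Dynll1 (0.27). With the mean over kept probes they turned for Bcl2l1 (0.14) and Dynll1 (0.0099), under median centring for Bnip3l (-0.048), and on the processed centred signals for Dynll1 (0.042). Values called in neither setting also turned: Pmaip1, with its only probe, and Vdac3 and the BH3 probe of Bcl2l11 under median centring (-0.10, -0.25 and 0.044) and without the GC trend (-0.18, -0.14 and 0.0099), Pmaip1, Trp73 and Myc uncentred (-0.063, -0.16 and -0.013), Pmaip1 and Trp73 centred (-0.016 and -0.11), Xiap, Mtch2 and Myc with the mean of probes (0.018, 0.060 and -0.069), and Trp73 without arrays 1 or 2 (-0.020 and -0.015). Median centring left 3574 genes called lower, against 5705, and the uncentred processed signals called 6 member probes lower, against 3. The cause of these was not tested. The median over all genes was 0.023 as reported and -0.12 on the uncentred processed signals. The share of called genes that were higher was 54.8% as reported, 41.6% uncentred, 47.1% centred, 48.7% without the GC trend and 60.6% under median centring. Of 136 member gene ratios under alternatives, 120 kept direction and call, 8 lost the call and 8 turned. Of 180 member probe ratios, 159 kept both, 5 gained a call, 10 lost it and 6 turned. Of 603 list gene ratios, 541 kept both, 18 gained a call, 25 lost it and 19 turned. With no replicate block, where the pairing of channels on an array is left out, no member changed its call: Bcl2 stayed at 1.40 and Bid at -0.60. The pairing comes from the shared array. Signal over background limits the dim probes of Bcl2l11, Bmf and the Bcl2 cDNA.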
